A study of Mus musculus with 6 samples.

Results

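The genes described here encode the machinery that moves new proteins into and out of the endoplasmic reticulum (ER). They were chosen by symbol: signal recognition particle proteins (Srp9, Srp14, Srp19, Srp54, Srp68, Srp72), the Sec61 family, Sec62, Sec63, Ssr1 to Ssr4 and Tram1, the signal peptidase genes Sec11 and Spcs1 to Spcs3, the oligosaccharyltransferase subunits, and the Sec13, Sec22, Sec23, Sec24, Sec31 and Sar1 families. Of 34745 genes in the deposited table, 50 have such a symbol. The rule itself holds no measured value, but it was chosen with earlier results of these data known. RNA came from 6 libraries of RAW 264.7, an established mouse macrophage-like cell line, and 3 libraries were of cells given the solvent DMSO while the other 3 were of cells given bisphenol AP (BPAP), a bisphenol A analogue. The sources used here give neither the dose of BPAP nor the time of exposure. The series asks how BPAP changes gene expression in macrophages, in a study of bleomycin-induced lung fibrosis. No label says whether the replicates were separate cultures, and p-values therefore reflect only library-to-library spread, which could be technical. All 9 macrophage markers checked were counted in every library, from at least 207 (Fcgr1) to 29132 (Lyz2) counts, while fibroblast markers reached at most 12 counts and epithelial and lymphoid markers at most 2.

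A secreted or membrane protein is recognised by the signal recognition particle (SRP) as its signal sequence leaves the ribosome, and is threaded through the Sec61 channel into the ER. There the signal peptidase removes the signal sequence and the oligosaccharyltransferase (OST) attaches N-linked sugar chains. Finished proteins leave the ER in vesicles coated with COPII, whose assembly starts with the GTPase Sar1. In macrophages this route carries cytokines, lysosomal enzymes and surface receptors.

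Most of these genes were higher in BPAP-treated cells. The largest folds were in Sec61g and Sec61b of the Sec61 channel, Ostc, Tmem258 and Krtcap2 of the OST, and Ssr4. Spcs1 and Spcs2 of the signal peptidase and Sec24d of the COPII coat came next. The COPII coat genes moved both ways, with a share of falls near that of all genes tested. Of the 49 genes with enough counts to test, 29 rose and 2 fell (edgeR's quasi-likelihood test, adjusted p of 0.05 as the threshold), and 18 did not pass. Among all 11711 genes tested, 16.2% rose and 15.5% fell. The median log2 fold change was 0.36 for the 49 genes and 0.02 for all genes tested. The 50 genes took 0.617%, 0.638% and 0.654% of all counts with DMSO and 0.785%, 0.800% and 0.821% with BPAP. In 30 of the 49 genes every BPAP value lay above every DMSO value (25.2% of all tested genes), and in 5 every BPAP value lay below (23.8%). In bulk libraries, more RNA per cell and more cells that express a gene cannot be told apart. The gene that could not be tested, Srp54a, had 0 counts in every library, which allows a level of up to 0.271 CPM (counts relative to the library total, here without TMM scaling) in the smallest one, for counting error only.

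**Figure D1:**
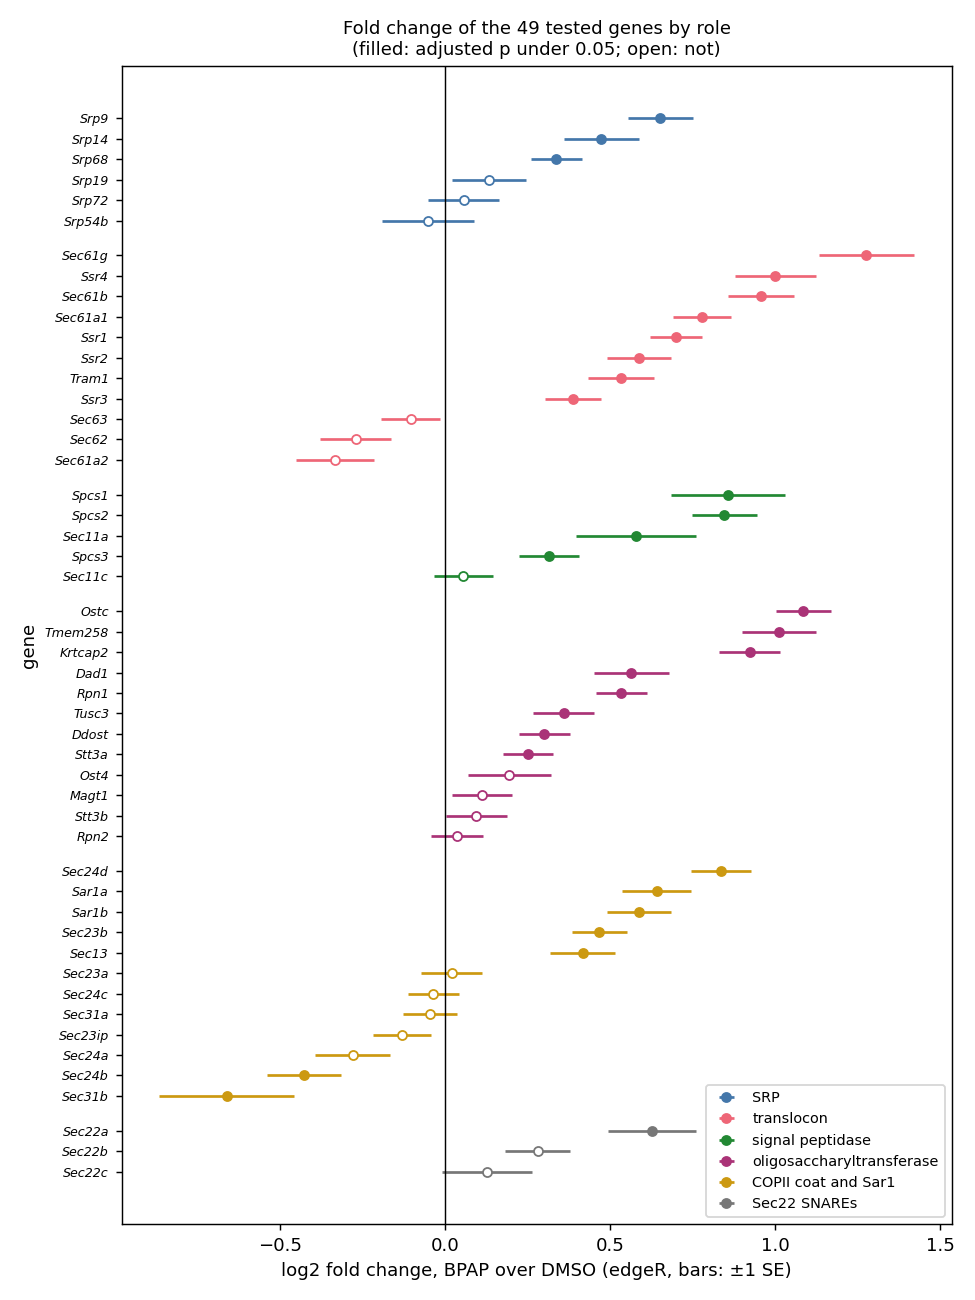
Log2 fold change of BPAP over DMSO for the 49 tested genes (horizontal axis), grouped by role, with bars of 1 SE to each side. Filled points passed an adjusted p of 0.05 and open points did not. The translocon, signal peptidase and OST genes lie mostly to the right, while the COPII genes spread from -0.66 (Sec31b) to 0.84 (Sec24d).

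Library totals were 11084705 to 13806559 counts. DMSO 1 stood apart in its share of mitochondrial counts, 10.8% against 6.53% to 7.55% elsewhere, and its part in the results was not tested beyond leaving it out: without it 26 of the genes rose and 1 fell. By the chi-square per degree of freedom between the counts of 2 libraries, DMSO 1 was at 19.04 and 19.96 from the other DMSO libraries, which were at 6.64 from each other. BPAP 2 was at 18.2 and 17.3 from the other BPAP libraries, which were at 8.31 from each other, and without BPAP 2 29 of the genes rose and 1 fell. The share of all genes that passed without a library was not counted, here or below, so such counts cannot be set against it. All other CPM values are TMM-scaled and given in the order DMSO 1, 2 and 3, then BPAP 1, 2 and 3. Values with ± are means and SDs over n = 3 libraries of each treatment.

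At the first step, 3 of 6 tested SRP genes rose and none fell (median log2 fold change 0.24), beside 16.2% and 15.5% of all genes tested. Srp9 and Srp14 encode the pair of proteins that slows the ribosome while SRP is bound. Srp9 was at 94.5, 94.7 and 112 CPM in DMSO and 152, 155 and 168 CPM in BPAP, a 1.57-fold rise (log2 fold change 0.65, SE 0.10, adjusted p = 0.00157). Srp14 was at 117, 102 and 122 CPM in DMSO and 136, 159 and 178 CPM in BPAP, a 1.39-fold rise (adjusted p = 0.0113). The groups did not overlap in either gene. Srp68, which binds the SRP RNA, rose 1.26-fold from 175 ± 2.11 to 221 ± 6.85 CPM (adjusted p = 0.00952). Its partner Srp72 had a fold change of 1.04 with overlapping values, 172 ± 20.7 against 178 ± 14.7 CPM (adjusted p = 0.713). Srp19, an assembly factor of the particle, was at 48.8 ± 4.56 and 53.5 ± 5.47 CPM (adjusted p = 0.388). Srp54b, one of the mouse copies of the subunit that grips the signal sequence, was at 20.8 ± 1.84 and 20.1 ± 3.18 CPM (adjusted p = 0.806), and reads of such near-identical copies are uncertain. Without DMSO 2, Srp14 did not pass (adjusted p = 0.0512). With the trend of each library's counts against exon length and GC content removed, 1 of 6 SRP genes rose, Srp9 at a log2 fold change of 0.71. Of all genes tested that way 11.8% rose, a share near that of the SRP genes. Srp14 and Srp68 were then at 0.12 and 0.14 (adjusted p = 0.46 and 0.151), and the SRP median was 0.13.

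In the translocon, 8 of 11 genes rose and none fell (median 0.59), beside 16.2% and 15.5% of all genes tested. The core channel has 3 subunits, and all of the genes for its main form rose. Sec61a1, which encodes the pore itself, was at 231, 239 and 235 CPM in DMSO and 375, 443 and 394 CPM in BPAP, a 1.72-fold rise (log2 fold change 0.78, SE 0.09, adjusted p = 0.000545). Sec61b was at 46.2, 53.98 and 52.1 CPM in DMSO and 98.2, 106 and 91.3 CPM in BPAP, a 1.94-fold rise (adjusted p = 0.000504). Sec61g (chromosome 11, 16500530 to 16508484, GRCm38) was at 16.2, 19.5 and 22.3 CPM in DMSO and 40.0, 52.6 and 48.4 CPM in BPAP. Its rise of 2.42-fold was the largest among the 49 genes (log2 fold change 1.28, SE 0.14, adjusted p = 0.000545). All BPAP values of these genes were above all DMSO values. The second pore gene, Sec61a2, did not follow them: it was at 24.9, 22.1 and 23.6 CPM in DMSO and 19.1, 16.6 and 20.3 CPM in BPAP (log2 fold change -0.33, adjusted p = 0.0549). Sec61a2 shares 909 of its 4572 exon bases with Nudt5 on the opposite strand, so its counts are uncertain. It passed as lower with DESeq2's size factors (adjusted p = 0.0497) and with limma-trend on FPKM (0.045). The log2 ratio of Sec61a1 to Sec61a2 counts was 3.22 to 3.43 with DMSO and 4.27 to 4.74 with BPAP.

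The 4 Ssr genes encode the TRAP complex, which sits beside the channel and helps some signal sequences to open it, and all 4 rose. Ssr4 was at 75.5, 70.8 and 66.6 CPM in DMSO and 121, 138 and 167 CPM in BPAP, a 2.00-fold rise (adjusted p = 0.000706). Ssr1 was at 199, 198 and 205 CPM in DMSO and 328, 312 and 338 CPM in BPAP, a 1.62-fold rise (adjusted p = 0.000545). The groups were far apart in both. Ssr2 rose 1.50-fold from 142 ± 15.5 to 213 ± 5.47 CPM, and Ssr3 rose 1.31-fold from 452 ± 13.4 to 592 ± 41.5 CPM. Tram1, whose product contacts the entering chain, rose 1.45-fold (149 ± 16.4 to 216 ± 11.6 CPM, adjusted p = 0.0038). Sec62 and Sec63 encode partners of the channel that serve proteins with weak or short signals, and they did not rise. Sec62 was at 136, 117 and 127 CPM in DMSO and 106, 91.5 and 117 CPM in BPAP (log2 fold change -0.27, adjusted p = 0.08), and it passed as lower without BPAP 3 (-0.35, adjusted p = 0.0465). Sec63 was at 138 ± 11.4 and 128 ± 1.92 CPM (adjusted p = 0.4). With the length and GC trend removed, the same 8 translocon genes rose, with Ssr2 at an adjusted p of 0.0489. Ssr2 did not pass when a replicate block was added to that fit (0.0514).

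**Figure D2:**
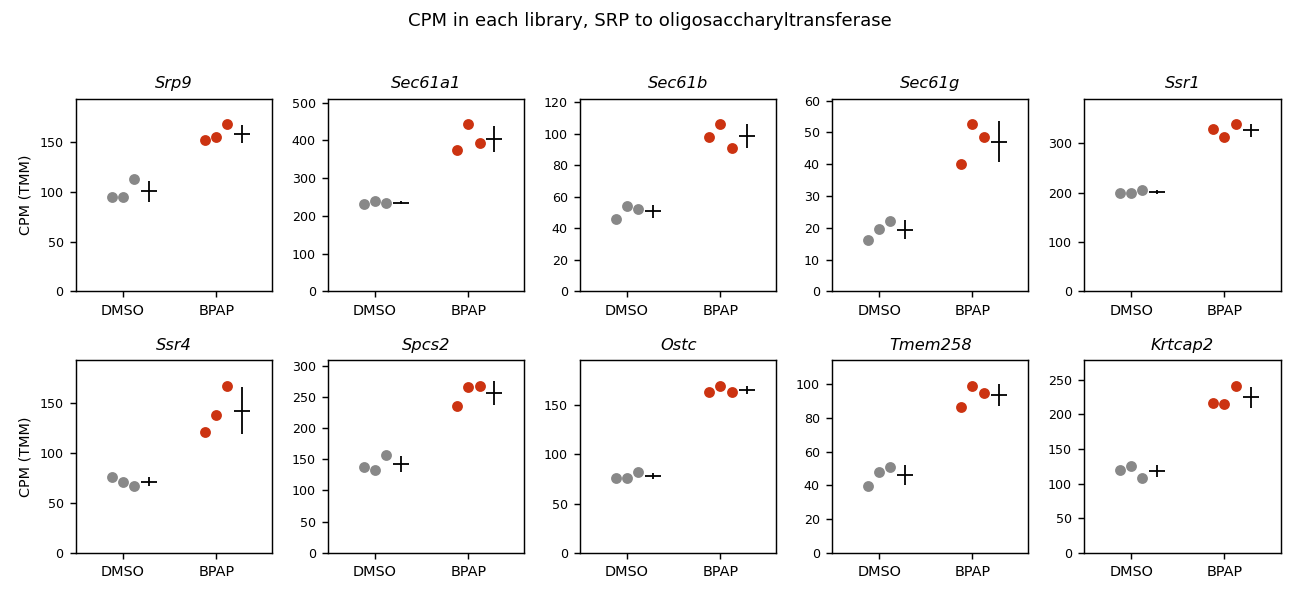
CPM (vertical axes, from 0) of 10 genes in each DMSO (grey) and BPAP (red) library, with the mean and SD of each group beside the points. In all 10 panels the 3 BPAP libraries lie above the 3 DMSO libraries, as for Ostc with 163 to 169.6 against 75.8 to 81.6 CPM.

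Of the 5 signal peptidase genes 4 rose (median 0.58, or 0.36 without DMSO 1), beside 16.2% of all genes tested. Spcs2 was at 137, 133 and 157 CPM in DMSO and 235, 265 and 268 CPM in BPAP, a 1.80-fold rise (log2 fold change 0.85, SE 0.10, adjusted p = 0.000545). Spcs1 was at 36.7, 40.4 and 39.9 CPM in DMSO and 56.0, 92.7 and 63.6 CPM in BPAP, a 1.81-fold rise (adjusted p = 0.00636). Both encode small accessory subunits, and BPAP 2 held the highest value of Spcs1. Spcs3, an essential accessory subunit gene, rose 1.24-fold from 206 ± 10.9 to 257 ± 19.6 CPM (adjusted p = 0.023). The enzyme's catalytic subunit comes in 2 forms. Sec11a was at 21.3, 33.9 and 37.2 CPM in DMSO and 43.5, 49.02 and 46.0 CPM in BPAP, a 1.49-fold rise (adjusted p = 0.0361) with DMSO 1 lowest. Sec11c was at 145 ± 1.89 and 151 ± 13.7 CPM with overlapping groups (adjusted p = 0.663). The Sec11a call was lost without DMSO 1 (log2 fold change 0.36 in place of 0.58, adjusted p = 0.0513), DMSO 2 (0.0596), BPAP 1 (0.0602), BPAP 2 (0.124) or BPAP 3 (0.0795) and with limma-trend on FPKM (0.0527). That of Spcs3 was lost without DMSO 1 (0.0814), DMSO 2 (0.0675), BPAP 1 (0.0726) or BPAP 3 (0.073), so that 2 genes of the complex rose without any 1 of DMSO 1, DMSO 2, BPAP 1 and BPAP 3.

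The OST exists in 2 assemblies that share most subunits. The form built on Stt3a works next to the Sec61 channel and carries the subunits encoded by Ostc and Krtcap2, and the form built on Stt3b carries Magt1 or Tusc3 and reaches sites that the first one skips. Of all 12 OST genes 8 rose and none fell (median 0.33), beside 16.2% and 15.5% of all genes tested. Ostc (chromosome 3, 130695912 to 130709444, GRCm38) was at 75.9, 75.8 and 81.6 CPM in DMSO and 163, 169.6 and 163 CPM in BPAP. It rose 2.12-fold (adjusted p = 0.000122, log2 fold change 1.09 with an SE of 0.08), with a gap between the groups many times the spread within them. Krtcap2 was at 120.2, 126 and 109 CPM in DMSO and 216, 215 and 241 CPM in BPAP, a 1.90-fold rise (adjusted p = 0.000421). Stt3a rose less, 1.19-fold from 344 ± 6.81 to 409.5 ± 11.2 CPM (adjusted p = 0.0307). Its call was lost without DMSO 1 (adjusted p = 0.0677), DMSO 2 (0.113), DMSO 3 (0.0715), BPAP 1 (0.0683) or BPAP 3 (0.0917), with no filter on low counts (0.0534) and with limma-trend on FPKM (0.052). With the length and GC trend removed, Stt3a, whose merged exons hold 8948 bases, was at 0.60 in place of 0.25 (adjusted p = 0.00216).

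Among the genes of the Stt3b form, Stt3b was at 251, 284 and 286 CPM in DMSO and 276, 283 and 318 CPM in BPAP, with overlapping groups (log2 fold change 0.10, adjusted p = 0.458). Tusc3 rose 1.28-fold, from 86.0 ± 6.81 to 110.5 ± 5.11 CPM (adjusted p = 0.015). Magt1, its alternative in the complex, was at 98.0 ± 5.28 and 106 ± 6.40 CPM (adjusted p = 0.36). Without DMSO 1 or DMSO 2 the call of Tusc3 was lost (adjusted p = 0.0571 and 0.0629). With the length and GC trend removed Magt1 passed as well (log2 fold change 0.26, adjusted p = 0.0309). The log2 count ratio of Tusc3 to Magt1 ran from -0.23 to -0.15 in DMSO and from 0.05 to 0.09 in BPAP. That of Stt3a to Stt3b ran from 0.25 to 0.46 in DMSO and from 0.41 to 0.55 in BPAP, with overlap.

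The subunits common to both forms split. Tmem258 was at 39.7, 47.8 and 51.1 CPM in DMSO and 86.6, 99.1 and 94.5 CPM in BPAP, a 2.02-fold rise (adjusted p = 0.000545). Rpn1, the gene of ribophorin I, was at 367, 359.6 and 376 CPM in DMSO and 528, 519.5 and 549 CPM in BPAP, a 1.45-fold rise (adjusted p = 0.00141). Its partner Rpn2 (ribophorin II) was at 353, 369 and 371 CPM in DMSO and 373, 360.4 and 389 CPM in BPAP, a fold change of 1.03 (adjusted p = 0.739). The groups overlapped in Rpn2 and were far apart in Rpn1. Dad1, first known as a survival gene, rose 1.48-fold (52.9 ± 5.41 to 78.2 ± 8.45 CPM, adjusted p = 0.00515). Ddost rose 1.23-fold (214 ± 6.04 to 264 ± 5.88 CPM, adjusted p = 0.0154), a call lost without DMSO 3 (0.0565) and with the length and GC trend removed (log2 fold change 0.05, adjusted p = 0.612). Ost4, a very small subunit that steadies the catalytic one, was at 125, 94.9 and 87.6 CPM in DMSO and 119, 115 and 117 CPM in BPAP (adjusted p = 0.258). DMSO 1 was its highest library, and without it Ost4 passed as higher (log2 fold change 0.34, adjusted p = 0.0282), although with the length and GC trend removed its sign turned (-0.17, adjusted p = 0.399). Ost4 shares 677 of its 1272 exon bases with Agbl5 on the opposite strand. Smaller antisense overlaps are annotated for Krtcap2 (239 bases, Trim46), Spcs1 (252 bases, Glt8d1) and Tmem258 (130 bases, Fen1), and the counts of these genes are uncertain to that extent. Srp9 (784 bases), Ssr2 (239), Sec11a (216) and Rpn1 (131) overlap antisense genes that have no row of counts here, so they are uncertain too. Apart from Nudt5, given above, partners in further antisense overlaps of members had at most 81 counts over all libraries.

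COPII genes moved both ways: of 12, 5 rose, 2 fell and 5 did not pass (median -0.01, or 0.07 with the length and GC trend removed). Of all genes tested 16.2% rose and 15.5% fell, so the share of COPII genes that fell is near that of all genes. The COPII genes had a median exon length of 6156.5 bases. Of all tested genes above 5698 exon bases, 6.02% rose and 30.3% fell. These shares do not match the whole COPII group, since Sar1a, Sar1b, Sec13, Sec23a and Sec31b have fewer exon bases. Of the COPII genes above that length, Sec23b and Sec24d rose, Sec24b fell and the others did not pass. Sar1a and Sar1b encode the GTPase that starts the coat. Sar1a was at 70.3, 71.4 and 77.6 CPM in DMSO and 109, 129 and 104 CPM in BPAP, a 1.56-fold rise (adjusted p = 0.00212). Sar1b was at 42.3, 38.8 and 43.2 CPM in DMSO and 58.0, 65.4 and 63.6 CPM in BPAP, a 1.50-fold rise (adjusted p = 0.00227). The log2 ratio of their counts was 0.73 to 0.88 in DMSO and 0.71 to 0.98 in BPAP, with overlap. Of the inner coat genes, Sec23b rose 1.38-fold, from 81.0 ± 0.845 to 112 ± 4.68 CPM (adjusted p = 0.00315), whereas Sec23a was at 64.9 ± 4.27 and 65.9 ± 3.30 CPM (adjusted p = 0.877). The log2 ratio of Sec23b to Sec23a was 0.21 to 0.39 in DMSO and 0.62 to 0.87 in BPAP.

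The 4 Sec24 genes encode the subunit that binds cargo, each with its own preferences, and they spread widely. Sec24d (chromosome 3, 123267455 to 123365641, GRCm38) was at 70.4, 67.1 and 64.8 CPM in DMSO and 122, 128 and 111 CPM in BPAP, a 1.79-fold rise (log2 fold change 0.84, SE 0.09, adjusted p = 0.000545). Sec24b was at 123, 105 and 92.7 CPM in DMSO and 83.4, 74.2 and 81.1 CPM in BPAP, 1.34-fold lower (adjusted p = 0.0174, log2 fold change -0.43 with an SE of 0.11). Sec24a was at 154, 124 and 125 CPM in DMSO and 114, 98.9 and 119.5 CPM in BPAP (log2 fold change -0.28, adjusted p = 0.0843). The groups did not overlap in these 3 genes, though that of Sec24a did not pass and was at -0.08 with the length and GC trend removed. Sec24c, the most highly counted of the family per exon base, was at 333 ± 9.48 and 325 ± 6.17 CPM (adjusted p = 0.755). Per kilobase of merged exon, mean levels in DMSO were 52.9 CPM for Sec24c, 17.8 for Sec24b, 12.6 for Sec24a and 10.7 for Sec24d, and in BPAP 51.6, 13.2, 10.4 and 19.03. Sec24d was thus the lowest of the family in DMSO and second in BPAP. The log2 ratio of Sec24d to Sec24b was -0.80 to -0.52 in DMSO and 0.45 to 0.79 in BPAP, a shift of 1.25.

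In the outer coat, Sec13, which also serves in the nuclear pore, rose 1.34-fold (82.6 ± 6.995 to 110.4 ± 8.10 CPM, adjusted p = 0.0107), and with the length and GC trend removed it was at 0.26 (adjusted p = 0.0521). Sec31a, the main outer coat gene, was at 147 ± 1.19 and 143 ± 7.01 CPM (adjusted p = 0.706). Sec31b had few reads, with 63, 75 and 66 counts in DMSO and 49, 41 and 35 counts in BPAP. It was 1.58-fold lower (adjusted p = 0.0318, log2 fold change -0.66 with an SE of 0.20), the largest fall among the 49 genes. The call of Sec31b was lost without DMSO 1 (adjusted p = 0.0831), DMSO 2 (0.107), BPAP 2 (0.0532) or BPAP 3 (0.101) and with DESeq2 (0.0552), so that Sec24b was then the only COPII gene that fell. Sec23ip, whose product binds Sec23 at ER exit sites, was at 80.4 ± 3.37 and 73.5 ± 3.75 CPM (adjusted p = 0.285).

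**Figure D3:**
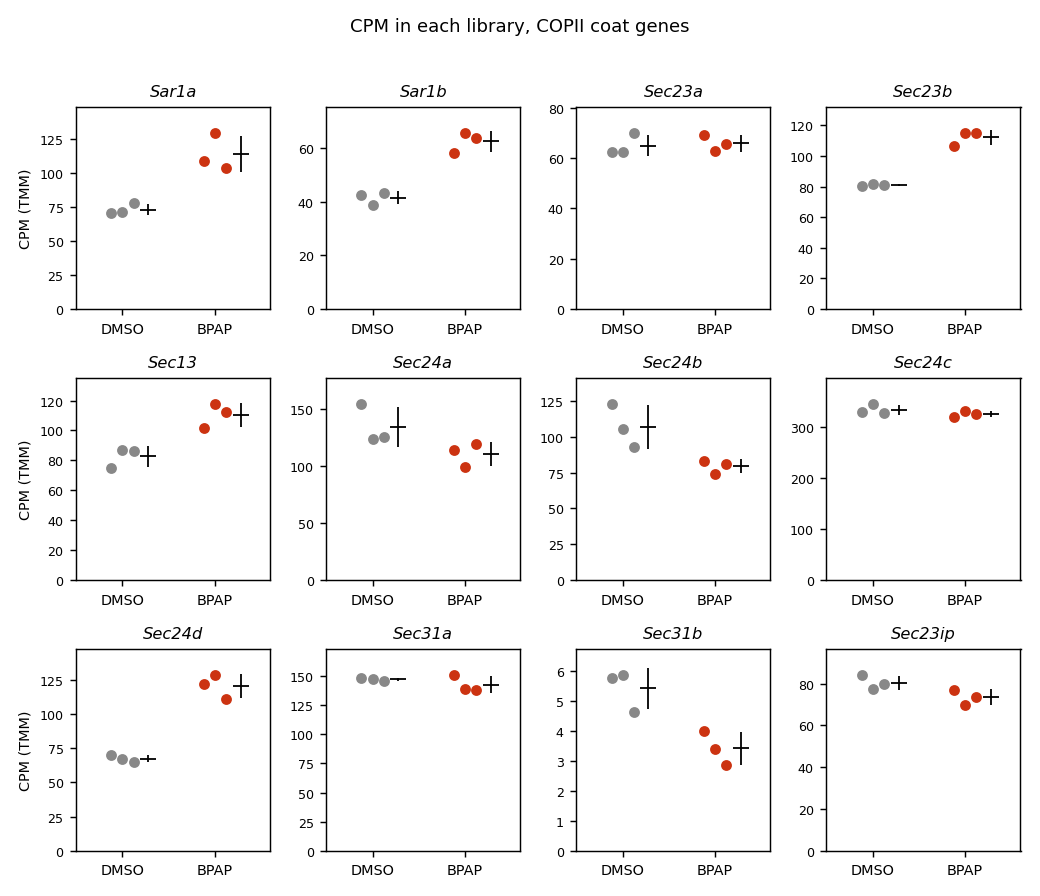
CPM (vertical axes, from 0) of the 12 COPII genes in each DMSO (grey) and BPAP (red) library, with the mean and SD of each group beside the points. Sec24d rises from 64.8 to 70.4 CPM in DMSO to 111 to 128 CPM in BPAP, while Sec24b lies lower in BPAP and Sec24c and Sec31a overlap.

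Sec22b, a SNARE that fuses ER-derived vesicles with their target, was at 103, 105 and 113 CPM in DMSO and 131, 116 and 143 CPM in BPAP (log2 fold change 0.28, adjusted p = 0.0519). The groups did not overlap, and Sec22b passed without BPAP 2 (0.36, adjusted p = 0.0126). It also passed with upper quartile scaling (adjusted p = 0.0373) and with the length and GC trend removed (0.0466). Its relative Sec22a rose 1.54-fold from 10.0 ± 0.894 to 15.5 ± 0.975 CPM (adjusted p = 0.00682). Sec22c was at 17.9 ± 2.80 and 19.5 ± 0.882 CPM (adjusted p = 0.502).

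Related genes were compared further by the log2 ratio of their counts within each library, which does not depend on how libraries are scaled. All 16 pairs within the Sec61 alpha, Sec11, Stt3, Tusc3 and Magt1, Sar1, Sec23, Sec24, Sec31 and Sec22 families were taken, with 1 pair of neighbours described next, 17 in all. In every pair the gene with the larger log2 fold change stands first, so all shifts are positive by that order and only their size is read. The shifts, BPAP minus DMSO, ran from 0.05 for Sar1a to Sar1b up to 1.25 for Sec24d to Sec24b, with 1.11 for Sec61a1 to Sec61a2, 0.63 for Sec31a to Sec31b, 0.57 for Sec11a to Sec11c and 0.44 for Sec23b to Sec23a. In these last 5 pairs the treatments did not overlap (exact 2-sided permutation p = 0.1, and 0.142 with Benjamini-Hochberg adjustment over the 17 pairs), and since 3 libraries of each kind allow no p below 0.1, no pair could pass a threshold of 0.05. For Sar1a to Sar1b the exact permutation p was 0.6. The treatments overlapped in that pair, Stt3a to Stt3b, Sec24c to Sec24a, Sec24a to Sec24b and Sec22b to Sec22c, and in no other. How often the ratios of other gene pairs separate was not counted. Of single genes, 25.2% of all tested had every BPAP value above every DMSO value and 23.8% below, so separation alone is common here.

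**Figure D4:**
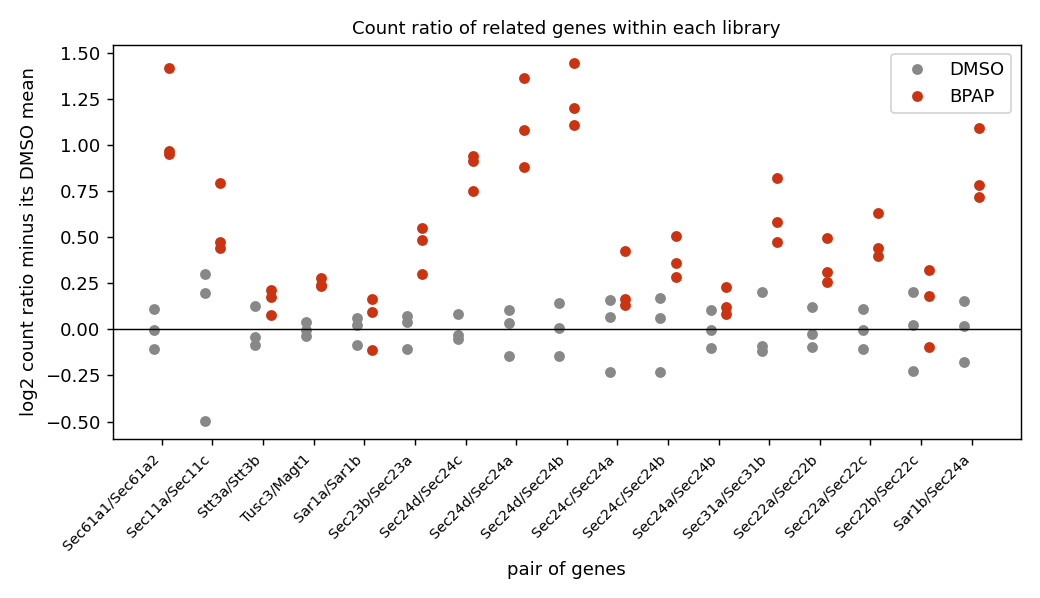
Log2 ratio of the counts of 2 genes in each DMSO (grey) and BPAP (red) library, minus the mean of the DMSO libraries, for the 17 pairs on the horizontal axis. The gene with the larger log2 fold change stands first in each pair, which sets the sign. The BPAP points lie about 1 unit up for Sec61a1 to Sec61a2, Sec24d to Sec24a and Sec24d to Sec24b, and on the DMSO points for Sar1a to Sar1b.

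Sar1b and Sec24a are neighbours on chromosome 11 that point away from each other, with 52 bases between their annotated ends in the deposited coordinates (51763635 to 51763686, GRCm38). These bases are printed because the deposited ends of both genes flank them, and Sar1b rose while Sec24a did not pass (RefSeq sequence, GRCm38.p6, chr11:51763635-51763686, plus strand, 5′ to 3′, no capitals set).
Between Sec24a and Sar1b: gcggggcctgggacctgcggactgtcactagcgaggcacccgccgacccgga
The log2 ratio of Sar1b to Sec24a counts was -1.87, -1.67 and -1.53 in DMSO and -0.97, -0.60 and -0.91 in BPAP, a shift of 0.86 without overlap. The RefSeq start of Sar1b lies inside the printed bases, whereas the RefSeq window of Sec24a lies elsewhere, within the deposited span of that gene. The exons of Sec24a hold 10683 bases and those of Sar1b 1255. With the length and GC trend removed, Sar1b was at 0.33 (adjusted p = 0.0258) and Sec24a at -0.08 (adjusted p = 0.599).

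Promoter windows of RefSeq (250 bases before to 50 after a start, GRCm38.p6) were found for 40 of the 49 tested genes and searched on both strands for sequences known from the unfolded protein and oxidative stress responses. Among the genes that rose, Ostc, Sec61a1, Ssr2, Tram1, Spcs3, Srp68 and Tusc3 had no window and were not searched. The ER stress response element (CCAAT, any 9 bases, CCACG) was found in 0 of the 40, against 0.163% of 8605 tested genes with a window. The core of the unfolded protein response element, TGACGTG, was found in 2 of the 40 (5.0%) against 3.45%, 1 of them among the 22 that rose (4.55%) and 1 among the other 18 (5.56%), and the C/EBP-ATF element TGATGNAA in 0 against 2.68%. The core of the antioxidant response element, TGACNNNGC, was found in 13 of the 40 (32.5%) against 17.2%, among them 8 of the 22 genes with a window that rose (36.4%) and 5 of the other 18 (27.8%). The match to TGACGTG in Sec24d, shown next, is also part of a match to TGACNNNGC, and so is the other TGACGTG match, in Sec23a. A match is a description of letters and not evidence of a site.

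The stretch that holds TGACGTG in Sec24d is shown because this cargo-binding coat gene had the largest rise in the COPII group (RefSeq, GRCm38.p6, chr3:123267458-123267487, plus strand, 5′ to 3′, capitals mark TGACGTG). The motif starts 26 bases before the RefSeq start. The whole stretch nevertheless lies within the deposited span of Sec24d, which begins at 123267455. The stretch was chosen after the values were seen.
Sec24d: cgcccgggcgccTGACGTGgcactagcaac
Sec24d rose 1.79-fold, as given above.

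Gene length moved with the treatment across the whole table, so the genes were also read against others of like length. The Spearman correlation of log2 fold change with merged exon length was -0.46 over the 49 genes and -0.40 over 11665 tested genes with a length. Both are descriptions across genes of the same 6 libraries, and genes are no replicates. When all tested genes were put into 3 classes of equal size by length, the shortest (up to 3154 exon bases) held 13 members. Of these 12 rose, against 28.8% of all genes of that length. In the middle class (up to 5698 bases) 12 of 22 rose and 1 fell, against 544 and 438 of 3887 genes. In the longest class 5 of 14 rose and 1 fell, against 6.02% and 30.3%. Median log2 fold changes in these classes were 0.86, 0.34 and 0.06 for the members and 0.23, 0.03 and -0.18 for all genes. Long members that rose include Ssr1 (10431 bases), Stt3a (8948), Sec61a1 (6732) and Sec24d (6325).

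After removal of the length and GC trend, 27 of the 49 genes rose and 2 fell, against 11.8% and 10.9% of all genes tested that way. Their median log2 fold change was 0.28, against 0.01 for all genes, and the correlation with length over the 49 genes was -0.10. Sec61g (1.13), Ostc (0.97), Ssr1 (0.93), Sec24d (0.91), Sec61a1 (0.83), Spcs2 (0.83) and Ssr4 (0.82) led in that fit. Srp14, Srp68, Ddost and Sec13 lost their calls, and Magt1 and Sec22b gained one.

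**Figure D5:**
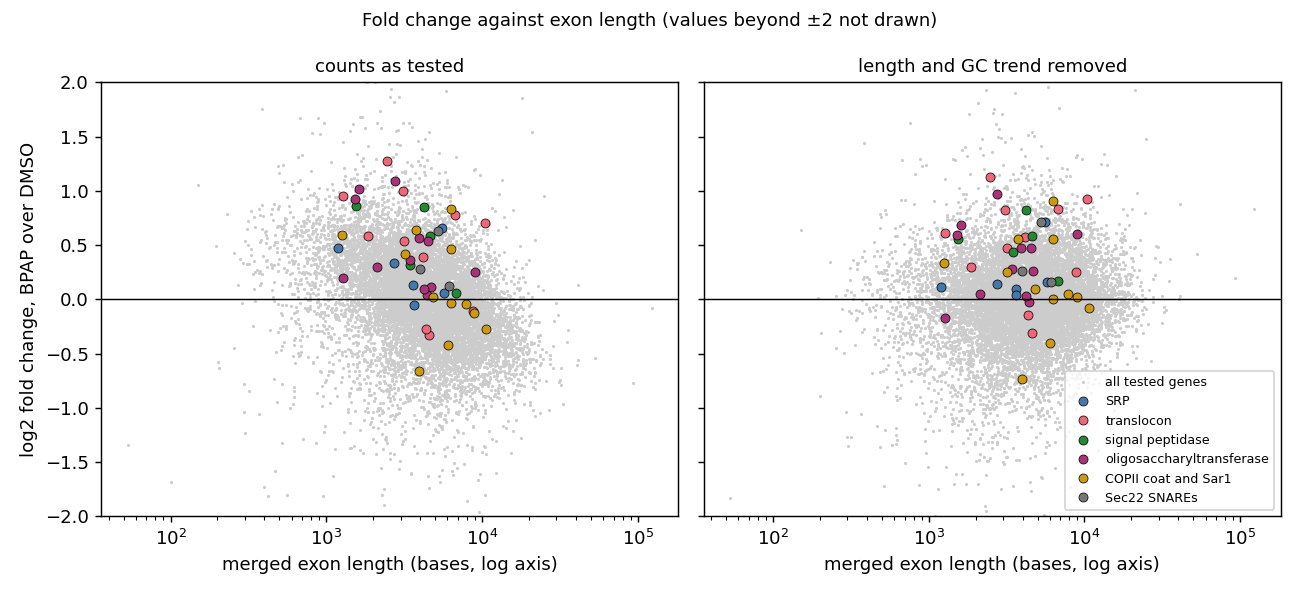
Log2 fold change (vertical axis) against merged exon length (horizontal log axis) for all tested genes (grey) and the 49 members (coloured by role), as tested (left) and with the length and GC trend removed (right). On the left the cloud falls with length and the members fall with it (Spearman correlation -0.46), and on the right they no longer do (-0.10) while most remain above 0.

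Other genes of the same route were read from 6 lists of 82 tested genes, of which 28 rose and 3 fell (median 0.24), beside 16.2% and 15.5% of all genes tested. Without DMSO 2, 18 of them rose and none fell, and with the length and GC trend removed 23 rose and 1 fell, beside 11.8% and 10.9%. Counts of a few genes per list are read against these shares, which were not counted for fits without a library. Of 9 genes for the SRP receptor and the insertion of tail-anchored proteins, 3 rose: Srprb, the beta subunit of the SRP receptor, 1.50-fold from 60.5 ± 1.81 to 90.8 ± 5.95 CPM, the tail-anchor receptor gene Wrb 1.56-fold, and Asna1, the ATPase of that route, 1.298-fold. Wrb did not pass without DMSO 2 (adjusted p = 0.057), and Asna1 not without DMSO 2 (0.0548) or DMSO 3 (0.0659), so 1 rose without DMSO 2 and 2 without DMSO 3. With the length and GC trend removed 2 of the 9 rose (median 0.07 in place of 0.23), and Asna1 was at 0.10 in place of 0.38 (adjusted p = 0.402). In the ER membrane protein complex, another insertion machine, 5 of 10 rose and 1 fell, with Emc7 at 1.42-fold, Emc6 at 1.59-fold and Emc4 at 1.42-fold. Emc6 and Emc4 did not pass with the length and GC trend removed (adjusted p = 0.0826 and 0.33), where 2 of the 10 rose and none fell. Emc2, named after its values were seen, was 1.29-fold lower (58.1 ± 6.73 to 44.8 ± 6.13 CPM, adjusted p = 0.0457). No gene of the complex fell without any 1 DMSO library, BPAP 1 or BPAP 2.

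Of 23 genes that build the lipid-linked sugar donor of the OST, 5 rose and 1 fell, a share that is near the 16.2% of all genes for the rise. Alg5, which makes dolichol phosphate glucose, rose 2.24-fold from 11.4 ± 0.719 to 25.6 ± 2.89 CPM (adjusted p = 0.000545). Alg2, a mannosyltransferase gene of the same pathway, rose 2.16-fold from 9.34 ± 0.960 to 20.2 ± 1.81 CPM (adjusted p = 0.000722). Dpm3, of the dolichol phosphate mannose synthase, rose 1.51-fold (adjusted p = 0.00428) but did not pass with the length and GC trend removed (0.129), where 2 of the 23 rose, below the 11.8% of all genes. The gene that fell, Alg13, also named after its values were seen, was 1.45-fold lower (19.6 ± 0.583 to 13.5 ± 2.96 CPM, adjusted p = 0.0267). It did not pass with the trend removed (adjusted p = 0.0883), where the gene that fell was Alg3 (log2 fold change -0.51, adjusted p = 0.00859). Without DMSO 2 or without BPAP 3, 3 of the 23 rose, and none fell without any 1 DMSO library or BPAP 1.

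At ER exit sites, 1 of 8 tested genes rose and 1 fell, shares no higher than the 16.2% and 15.5% of all genes. Sec16a, the scaffold of these sites, rose 1.37-fold from 60.7 ± 0.683 to 83.4 ± 8.43 CPM (adjusted p = 0.00677). Mia3 (TANGO1), which loads large cargo such as collagen, was 1.22-fold lower (126 ± 12.6 to 103 ± 4.36 CPM, adjusted p = 0.0473), a call lost without DMSO 1 (0.114), DMSO 2 (0.0942), BPAP 1 (0.0979) or BPAP 3 (0.128), with upper quartile scaling (0.0623) and with the length and GC trend removed (0.0756). Of 22 cargo receptor and ER-to-Golgi SNARE genes 10 rose and none fell, 6 or 7 of them without any 1 library other than BPAP 2. They include Tmed3, 1.71-fold from 48.9 ± 2.17 to 83.6 ± 3.55 CPM, the cargo receptor gene Surf4, 1.49-fold, and Bcap31, 1.49-fold, which did not pass with the length and GC trend removed (adjusted p = 0.0609). In the COPI coat, which returns proteins from the Golgi to the ER, 4 of 10 rose and none fell, with Arf1 at 1.38-fold, Cope at 1.36-fold and Copz1 at 1.29-fold. With the length and GC trend removed 6 of the 10 rose, though not Arf1 (adjusted p = 0.0717).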

How the data were processed

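Per the submitters' processing notes, HISAT2 2.0.4, StringTie 1.3.3b and edgeR were used with GRCm38, with no roles given. The authors deposited raw counts and FPKM values of 34745 genes in 6 libraries (3 per treatment label). The sources used here do not give the annotation release, strand setting or handling of multiply matching reads. Genes kept by edgeR's default filter (11711) were tested with its quasi-likelihood test (edgeR 4.0.16, R 4.3.3, TMM, robust, treatment only), with Benjamini-Hochberg adjustment over all of them and a threshold of 0.05. The fit was tested on simulated counts. SEs were computed as the log2 fold change over the root of F. Merged exon length and transcript GC content come from GENCODE M21. The length and GC trend was a lowess curve of span 0.3 per library, entered as an offset for 11665 genes, and estimating it on the same counts can also remove differences that go with length. Other alternatives were DESeq2 1.42.0, its size factors, upper quartile scaling, no filter, limma-voom and limma-trend (limma 3.58.1) on log2(FPKM + 1) of the deposited FPKM (mean of at least 1), a replicate block, and each library left out. All members, and up to 3 genes of each related list by smallest p, may be named. Members, lists and motifs were chosen with earlier results of these data known, and the count ratios after values were seen. No 2 libraries of the same treatment agreed within sampling noise (smallest chi-square per degree of freedom 6.64). The floor of 3 counts covers counting error only. One promoter stretch is not reported here.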

Additional observations from a re-analysis of the deposited data

How the results depend on the processing

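Of the 31 members that passed, 21 kept their call and direction in all 15 alternatives. The same share was not counted for all genes that passed, so the members cannot be compared with them in this. The number of members that rose was 24 to 29 without 1 library (24 without DMSO 2), and 27 to 30 in the other alternatives. The share of all genes that passed was counted only in the main fit and with the length and GC trend removed. Counts in the other alternatives therefore cannot be compared with all genes. The median log2 fold change of the members was 0.33 to 0.41 without 1 library and 0.28 with the length and GC trend removed, with or without the replicate block. The number of members that fell was 1 with DESeq2, 5 with the replicate block and 1 to 2 without 1 library. Of the related genes, 18 to 30 rose and 0 to 2 fell without 1 library, 1 fell with upper quartile scaling and 1 with the trend removed. Same-numbered libraries had correlations of their deviations from the group means of 0.10, 0.05 and 0.01, so the numbers were not taken to pair them, although each library but DMSO 3 correlated best with its own number. With that replicate block 30 members rose, with Sec22b added (adjusted p = 0.0281), and Sec24a (0.045), Sec61a2 (0.0404) and Sec62 (0.0337) were added to those that fell. The largest shift of the median of all genes by another scaling took it from 0.02 to 0.04. No called gene changed sign. Among genes that did not pass, the log2 fold change turned sign with the trend removed, without and with the replicate block, in Sec23ip (0.026 and 0.025), Sec24c (0.0018 and 0.0019), Sec31a (0.048 and 0.047), Srp54b (0.038 and 0.036), Ost4 (-0.17 and -0.15), Rpn2 (-0.028 and -0.029) and Sec63 (0.25 and 0.24). Sec23a was at -0.0069 with limma-trend on FPKM. Without 1 library, Sec23a ran from -0.025 to 0.077, Sec22c from -0.0072 to 0.23, Rpn2 from -0.0029 to 0.065, Srp72 from -0.040 to 0.11, Srp54b from -0.14 to 0.075 and Sec11c from -0.0088 to 0.12. The causes were not tested. At 35 to 75 counts per library, Sec31b is limited by depth, and Srp54a could not be measured.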
